A study of Mus musculus with 6 samples.

Results

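Dusp4, Dusp6, Spry4 and Spred3 encode inhibitors that switch off signalling through the ERK kinases, and their expression was described in primary mouse embryonic fibroblasts (MEFs) with and without Bahd1. The 4 genes were taken by symbol from the comparison table that the authors deposited for these arrays, which names 491 of the 23332 transcript clusters measured. A transcript cluster is the set of probes that the array assigns to a gene. The authors' table lists only clusters past an adjusted p-value of 0.05 in their test of Bahd1-KO against Bahd1-WT MEFs. The difference between the genotypes therefore chose these genes, and it is given here as a description, with no test. No other gene whose symbol begins with Dusp, Spry or Spred is in that table.

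Expression was read from 3 arrays of Bahd1-KO and 3 of Bahd1-WT MEFs, all of the Mouse Exon 1.0 ST type. The Bahd1-KO embryos lacked the gene in all cells, the Bahd1-WT embryos were wild type, and both came from crosses of heterozygous C57BL/6 mice. Each E13.5 embryo gave its own untreated culture, which was read at low passage from frozen stock. BAHD1, the product of the deleted gene, is a nuclear protein of silent chromatin. The median of an array lay between 5.01 and 5.06 on the log2 scale, and Pearson's r between arrays lay between 0.9838 and 0.9896. Bahd1 is not among the named clusters, so its level was not analysed here. The number of arrays limits the precision. In such cultures, fewer cells of a type and less RNA per cell cannot be told apart.

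ERK is the last kinase of a cascade that runs from growth factor receptors through Ras, Raf and MEK. Active ERK induces genes whose products turn the cascade off again, so mRNA levels of these inhibitors are often read as a trace of recent ERK activity. DUSP4, a nuclear enzyme, and DUSP6, a cytoplasmic one, are phosphatases that remove the activating phosphates from ERK. Sprouty proteins such as SPRY4, and the related SPRED proteins such as SPRED3, act further up, between the receptors and Raf. In fibroblasts, serum and growth factors are common triggers of this pathway.

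Promoter windows are shown as description only, since the 4 genes were chosen on the contrast of the genotypes. Windows of 300 bases, from 250 bases before the start of transcription to 50 after it, were found for 2 of the 4 members, Dusp6 and Spred3. They come from RefSeq (GRCm38.p6) and are written 5′ to 3′ with motif matches in capitals, for Dusp6 from chr10:99262981-99263280 (plus strand) and for Spred3 from chr7:29168598-29168897 (minus strand).
Dusp6: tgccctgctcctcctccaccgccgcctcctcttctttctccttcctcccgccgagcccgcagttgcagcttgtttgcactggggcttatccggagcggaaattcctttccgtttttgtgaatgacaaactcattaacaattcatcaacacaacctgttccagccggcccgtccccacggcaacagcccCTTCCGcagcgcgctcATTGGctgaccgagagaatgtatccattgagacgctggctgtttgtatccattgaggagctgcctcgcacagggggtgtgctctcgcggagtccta
Spred3: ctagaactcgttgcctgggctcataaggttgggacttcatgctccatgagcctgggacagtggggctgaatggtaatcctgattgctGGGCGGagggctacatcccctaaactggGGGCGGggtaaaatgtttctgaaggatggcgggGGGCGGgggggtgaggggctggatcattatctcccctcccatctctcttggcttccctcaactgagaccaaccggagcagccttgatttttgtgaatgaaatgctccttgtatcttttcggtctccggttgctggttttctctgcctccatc
Motifs were searched on both strands. The GC box, read by SP1 and its relatives, was searched as GGGCGG and was in 35.7% of the 32851 windows of the table. The ETS site was searched as CCGGAA (14.9% of windows) and in a form that overlaps it, CGGAAG (16.8%). The AP-1 site was searched as TGANTCA (7.81%). The cAMP response element was searched in full as TGACGTCA (1.79%) and in its overlapping short form TGACG (20.8%). The CCAAT box was searched by the letters of its name (37.4%), and the CArG box bound by SRF was in 1.63%. The Dusp6 window held the ETS letters CGGAAG on the minus strand, 62 bases before the start, and a CCAAT box on the minus strand, 46 bases before it. Several ETS factors are direct targets of ERK. The Spred3 window held 3 GC boxes, at 163, 135 and 102 bases before the start, and 10.7% of all windows held at least 3. The 2 windows shared no motif of the search, and neither held an AP-1 site, a cAMP response element, its short form or a CArG box in these bases. These matches describe letters and not bound sites.

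The array annotation places Dusp4 (cluster 6975335) on the plus strand of chromosome 8 from 35804448 to 35885008 and Dusp6 (cluster 6770160) on the plus strand of chromosome 10 from 98725011 to 98756906. Spry4 (cluster 6864813) lies on the minus strand of chromosome 18 from 38745926 to 38765276, and Spred3 (cluster 6966189) on the minus strand of chromosome 7 from 29943848 to 29955410. The genome build of these positions is not given in the sources used here. The annotation counts 132 probes for Dusp4, 89 for Dusp6, 87 for Spred3 and 24 for Spry4, so the value of Spry4 rests on the fewest. For Dusp4 and Dusp6 the clusters spanned 80561 and 31896 bases, against 12285 and 4259 bases for the genes in RefSeq. How many of these probes entered the gene core values is not stated.

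Dusp4 had the largest difference of the 4. Its log2 values were 8.05, 8.13 and 8.31 in Bahd1-KO MEFs 1 to 3, against 7.32, 7.27 and 6.99 in Bahd1-WT MEFs 1 to 3. Every Bahd1-KO array lay above every Bahd1-WT array, with a gap of 0.73 between the nearest arrays. The mean was 8.16 ± 0.13 in Bahd1-KO and 7.19 ± 0.18 in Bahd1-WT MEFs (SD, n = 3 each), a log2 difference of 0.97 with a standard error of 0.12 in limma, or 1.96-fold. The difference was 6.15 times the pooled SD of the arrays within a genotype.

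Dusp6 followed, with wider spread. Its log2 values were 9.20, 9.32 and 9.65 in Bahd1-KO MEFs, against 8.93, 8.71 and 8.34 in Bahd1-WT MEFs. The arrays of the genotypes did not overlap, but the nearest were only 0.27 apart, the lowest Bahd1-KO array being number 1 and the highest Bahd1-WT array being number 1. The mean was 9.39 ± 0.23 in Bahd1-KO and 8.66 ± 0.30 in Bahd1-WT MEFs (SD, n = 3 each), a log2 difference of 0.73 (standard error 0.19), or 1.66-fold. This equals 2.71 times the pooled SD, the lower ratio of the 2 phosphatase genes.

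Spry4 encodes the Sprouty protein of the set. Its log2 values were 7.15, 7.47 and 7.82 in Bahd1-KO MEFs, against 6.87, 6.90 and 7.05 in Bahd1-WT MEFs. The Bahd1-KO arrays were spread over 0.66 and the Bahd1-WT arrays over 0.18, and the nearest arrays of the 2 genotypes were 0.10 apart. The mean was 7.48 ± 0.33 in Bahd1-KO and 6.94 ± 0.10 in Bahd1-WT MEFs (SD, n = 3 each), a log2 difference of 0.54 (standard error 0.18), or 1.46-fold. Of the 4 genes, Spry4 had the smallest gap and, at 2.21, the smallest ratio of difference to pooled SD.

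Spred3 had the smallest difference of the 4. Its log2 values were 6.81, 6.61 and 7.02 in Bahd1-KO MEFs, against 6.36, 6.37 and 6.32 in Bahd1-WT MEFs. The Bahd1-WT arrays lay within 0.05 of each other, and the lowest Bahd1-KO array was 0.24 above the highest of them. The mean was 6.81 ± 0.21 in Bahd1-KO and 6.35 ± 0.03 in Bahd1-WT MEFs (SD, n = 3 each), a log2 difference of 0.46 (standard error 0.12), or 1.38-fold. Levels of different genes are not set against each other, since their probes differ.

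**Figure D1:**
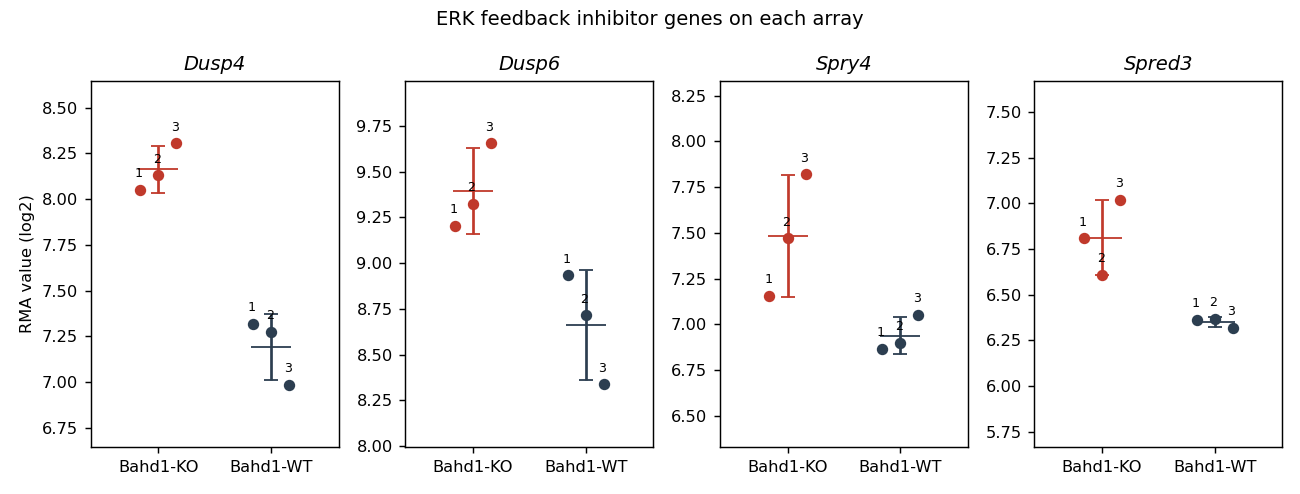
RMA values (log2, y axis) of Dusp4, Dusp6, Spry4 and Spred3 on the 3 Bahd1-KO arrays (left, red) and the 3 Bahd1-WT arrays (right, dark), numbered by embryo, with the mean (bar) and SD (whiskers). The panels cover equal spans of the log2 scale, the gap between the genotypes is widest for Dusp4 (0.73) and narrowest for Spry4 (0.10), and the Bahd1-WT arrays of Spred3 lie within 0.05 of each other.

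In all 4 genes the Bahd1-KO arrays lay above the Bahd1-WT arrays. This held for 59.7% of the 491 genes named in the table and for 11.4% of all 23332 clusters, and since the genes were chosen on this contrast nothing is read from their count. The median log2 difference of the 4 genes was 0.64, beside 0.02 over all clusters and 0.43 over the named genes, of which 354 were higher and 137 lower by their means. Counted from the highest difference, Dusp4 was 102nd, Dusp6 304th, Spry4 719th and Spred3 1062nd of all clusters. Among the 1000 clusters nearest in brightness, 99.9% had a smaller difference than Dusp4, 99.5% than Dusp6, 98.0% than Spry4 and 96.4% than Spred3. High ranks and shares follow from the choice of the genes on this difference, so nothing is read from them. These genes were also more variable within a genotype than most clusters of like brightness. The pooled SD was larger than that of 96.9% of those clusters for Dusp6, of 90.1% for Spry4, of 76.9% for Dusp4 and of 61.8% for Spred3. Limma called 0 clusters higher and 0 lower at an adjusted p under 0.05 over all clusters (0% in each direction), while 2425 clusters (10.4%) had an unadjusted p under 0.05. Among the 11666 clusters above the median brightness alone, it called 29 higher and 7 lower.

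**Figure D2:**
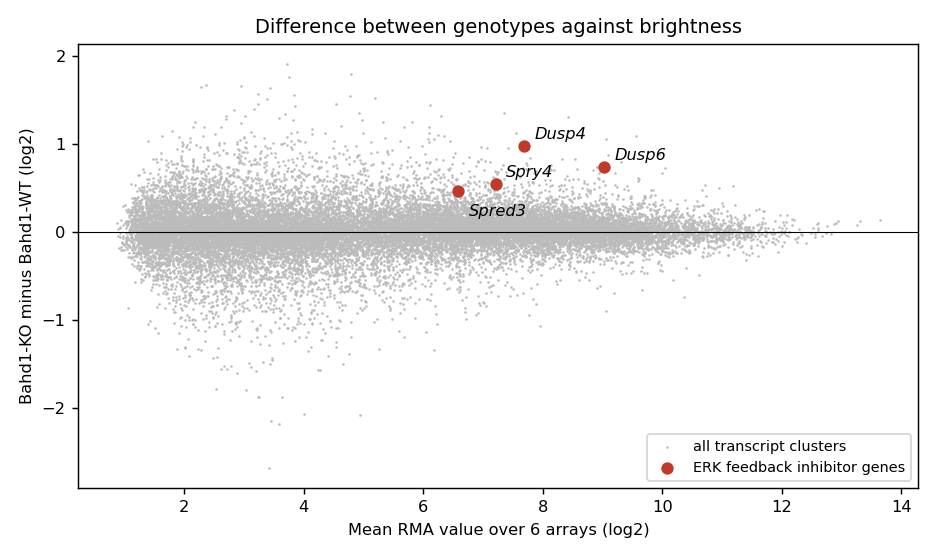
Difference in log2 value, Bahd1-KO minus Bahd1-WT (y axis), against the mean log2 value over the 6 arrays (x axis), with each grey point a transcript cluster and red points the 4 genes. Dusp4 (0.97) and Dusp6 (0.73) lie above nearly all clusters of their brightness, and Spry4 (0.54) and Spred3 (0.46) lie nearer to the cloud. The 4 genes were chosen on this difference.

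The cultures of a genotype also differed among themselves. Bahd1-KO MEFs 3 had the highest Bahd1-KO value of all 4 genes, by 0.14 above the genotype mean for Dusp4, 0.26 for Dusp6, 0.34 for Spry4 and 0.21 for Spred3. Bahd1-KO MEFs 1 were lowest for Dusp4, Dusp6 and Spry4, and Bahd1-KO MEFs 2 for Spred3. Among Bahd1-WT arrays the genes parted. Bahd1-WT MEFs 3 were lowest for Dusp4 (-0.21), Dusp6 (-0.32) and Spred3 (-0.03) but highest for Spry4 (0.11). Of the 354 named genes that were higher in Bahd1-KO MEFs, 55.9% also had their highest Bahd1-KO value in Bahd1-KO MEFs 3 and 64.4% their lowest Bahd1-WT value in Bahd1-WT MEFs 3. Over all clusters these shares were 30.7% and 37.8%.

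After the mean of each genotype was subtracted, the values of Dusp4 and Dusp6 ran together over the 6 arrays, with a Pearson's r of 0.98. The r of the other pairs lay between 0.32 for Dusp4 and Spry4 and 0.52 for Dusp6 and Spred3. These are descriptions over 6 arrays, with all genes read on the same arrays, and no p is given. Only 7 of the 487 other named genes were closer to Dusp4 by this measure than Dusp6 was.

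**Figure D3:**
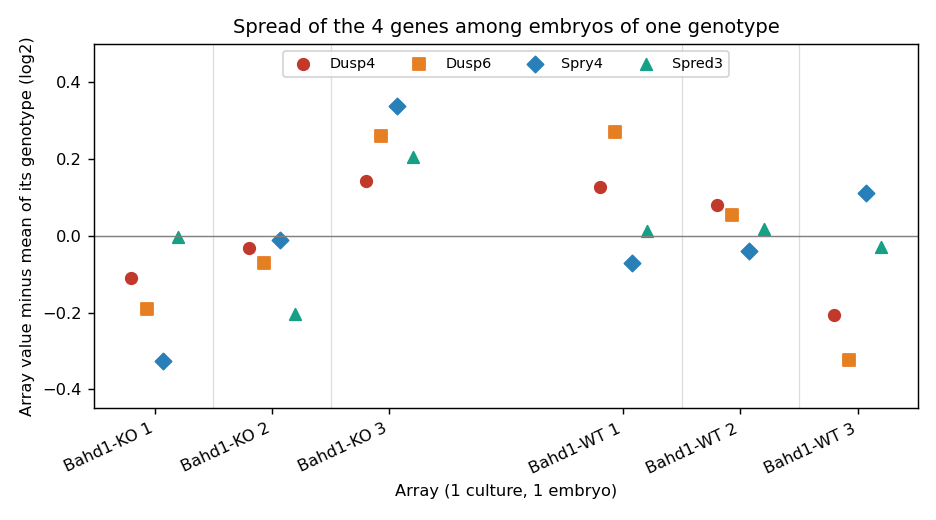
Value of each gene on an array minus the mean of its genotype (log2, y axis) for the 3 Bahd1-KO arrays (left) and the 3 Bahd1-WT arrays (right), with a symbol for each of the 4 genes. All 4 genes are above 0 in Bahd1-KO MEFs 3, by 0.14 to 0.34, and in Bahd1-WT MEFs 3 only Spry4 (0.11) is above 0.

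The named genes whose pattern was most like each member were found by Pearson's r over the 6 arrays, the members themselves left out. For Dusp4 these were the claudin gene Cldn12 and Ubash3b, which encodes a tyrosine phosphatase of the UBASH3 family (r = 0.995 each). For Dusp6 they were the serotonin receptor gene Htr2a (r = 0.998) and Lif, a cytokine of the IL-6 family (r = 0.997). The log2 values of Htr2a were 9.20, 9.24 and 9.54 in Bahd1-KO MEFs, against 8.87, 8.68 and 8.35 in Bahd1-WT MEFs, in the same order of arrays as Dusp6. For Spry4 the chemokine gene Cx3cl1 was among the closest (r = 0.977). For Spred3 they were the forkhead gene Foxs1 (r = 0.975) and the histone gene Hist2h3c1 (r = 0.971). Since all named genes were chosen on the contrast of the genotypes, high values are common, and 195 of the 487 genes had an r over 0.9 with Dusp4, 146 with Dusp6, 61 with Spred3 and 29 with Spry4.

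With the genotype means subtracted, the Src-family kinase gene Lyn was among the closest to Dusp4 (r = 0.994). For Dusp6 they were Htr2a again (r = 0.996) and Gpr149, an orphan receptor gene (r = 0.992). Lmcd1, which encodes a LIM domain protein (r = 0.985), and the tetraspanin gene Tspan2 (r = 0.970) were closest to Spry4. Taf13, a subunit of TFIID (r = 0.923), and Hist2h3c1 (r = 0.904) were closest to Spred3. An r over 0.9 on this scale was reached by 51 named genes for Dusp4, 47 for Dusp6, 7 for Spry4 and 2 for Spred3. As shares of the 487 these were 10.5%, 9.65%, 1.44% and 0.41%, beside 2.70%, 2.27%, 1.62% and 1.5% of all clusters, so that for Spry4 and Spred3 the named genes were not above that background.

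The rest of the pathway was read from a list of 139 genes, made of the cascade itself and 6 other classes. It was written from textbook knowledge with earlier results of these data known. Of the 139 genes, 31 are named in the table, the 4 inhibitors included. Of these 31, 30 had a higher and 1 a lower mean in Bahd1-KO MEFs. In 28 every Bahd1-KO array lay above every Bahd1-WT array (59.7% of named genes, 11.4% of all clusters), in 1 below (17.3% and 6.64%), and in 2 the genotypes overlapped. Limma called 0 of the 31 at an adjusted p under 0.05. The median log2 difference of the 31 was 0.54. All 31 were chosen by the authors' test on these arrays, where 491 of all 23332 clusters are named. Counts of named genes by class are thus counts of called genes, and nothing is read from them. The other listed genes are not named in the files used, so that no value of theirs was read.

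The phosphatases and the Sprouty and Spred genes gave 2 of 10 and 2 of 7 listed genes to the table, the 4 described above. Of 10 other negative regulators the table names 2. Errfi1, an inhibitor of the EGF receptor that is itself induced by growth factors, had log2 values of 10.17, 10.36 and 10.38 in Bahd1-KO MEFs, against 9.97, 10.06 and 9.79 in Bahd1-WT MEFs. Its arrays did not overlap and the log2 difference was 0.37 (standard error 0.10). Rasa2, a GTPase-activating protein for Ras, differed by 0.33 (standard error 0.12) and its arrays overlapped. Of 31 genes of the cascade itself, from Ras, Raf, MEK and ERK to their adaptors and exchange factors, 0 are in the table.

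Upstream, 9 of 29 listed ligands and 5 of 22 receptors are named. All 9 ligands were higher in Bahd1-KO MEFs with no overlap, as were 59.7% of the named genes and 11.4% of all clusters. The 9 were chosen on this contrast, so nothing is read from their count. Their differences ran from 0.31 for Gas6, a ligand of the AXL receptor, to 0.95 for Areg, a ligand of the EGF receptor. Areg had log2 values of 7.67, 7.59 and 7.37 in Bahd1-KO MEFs, against 6.83, 6.41 and 6.55 in Bahd1-WT MEFs. The other EGF receptor ligands in the table, Hbegf and Ereg, differed by 0.73 and 0.70. Csf1, Hgf, Fgf7 and Pdgfa lay between 0.38 and 0.67. Unlike the inhibitors, Areg, Fgf7 and Hgf were lowest of the Bahd1-KO arrays in number 3.

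Among the receptors, Met, Csf1r and Axl, the receptors of HGF, CSF1 and GAS6, were higher in Bahd1-KO MEFs by 0.45, 0.43 and 0.41, with no overlap. Flt1, a VEGF receptor, differed by 0.56 with overlap. Pdgfra, a PDGF receptor of mesenchymal cells, was the only lower gene of the list, with log2 values of 8.36, 8.50 and 8.13 in Bahd1-KO MEFs, against 8.74, 8.80 and 9.10 in Bahd1-WT MEFs. Its log2 difference was -0.55 (standard error 0.14), with no overlap.

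Downstream, 11 of 30 listed ERK-responsive genes are named. All 11 were higher in Bahd1-KO MEFs with no overlap, by 0.29 for the architectural chromatin gene Hmga2 to 1.24 for the cytokine gene Il6. Arrays without overlap in this direction were found for 59.7% of the named genes and 11.4% of all clusters. Since the 11 were chosen on this contrast, nothing is read from their count. Fosl1, which encodes the AP-1 subunit FRA1, had log2 values of 7.29, 7.59 and 7.74 in Bahd1-KO MEFs, against 6.89, 6.95 and 6.72 in Bahd1-WT MEFs, a difference of 0.69 (standard error 0.14). Egr2, an early response transcription factor gene, had values of 9.37, 9.44 and 9.79 in Bahd1-KO MEFs, against 9.14, 9.07 and 8.39 in Bahd1-WT MEFs, a difference of 0.66 (standard error 0.23). The immediate early genes Ier2 and Ier3 differed by 0.56 and 0.57, and Myc by 0.61. Phlda1, a pleckstrin homology domain gene, differed by 0.50, and Plaur, the urokinase receptor gene, by 0.54. Lif differed by 0.67 and Srf, which encodes serum response factor, by 0.38.

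The order of arrays was read in the ERK-responsive genes too, beside the 354 named genes that were higher in Bahd1-KO MEFs. In 10 of the 11 (90.9%) the highest Bahd1-KO value was in Bahd1-KO MEFs 3, Il6 being the exception, against 55.9% of those named genes. In 9 (81.8%) the lowest was in Bahd1-KO MEFs 1, against 55.4%. In 7 (63.6%) the lowest Bahd1-WT value was in Bahd1-WT MEFs 3, about the share of those named genes (64.4%). All clusters gave 30.7%, 31.2% and 37.8% for the same 3 positions. None of these shares was tested, and the 11 genes were chosen on this contrast from a list written with earlier results of these data known. The median deviation of the 11 from the genotype mean was 0.17 in Bahd1-KO MEFs 3 and -0.19 in Bahd1-KO MEFs 1, where over all clusters it was -0.0094 and 0.011. It was -0.14 in Bahd1-WT MEFs 3, against -0.0045 over all clusters.

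**Figure D4:**
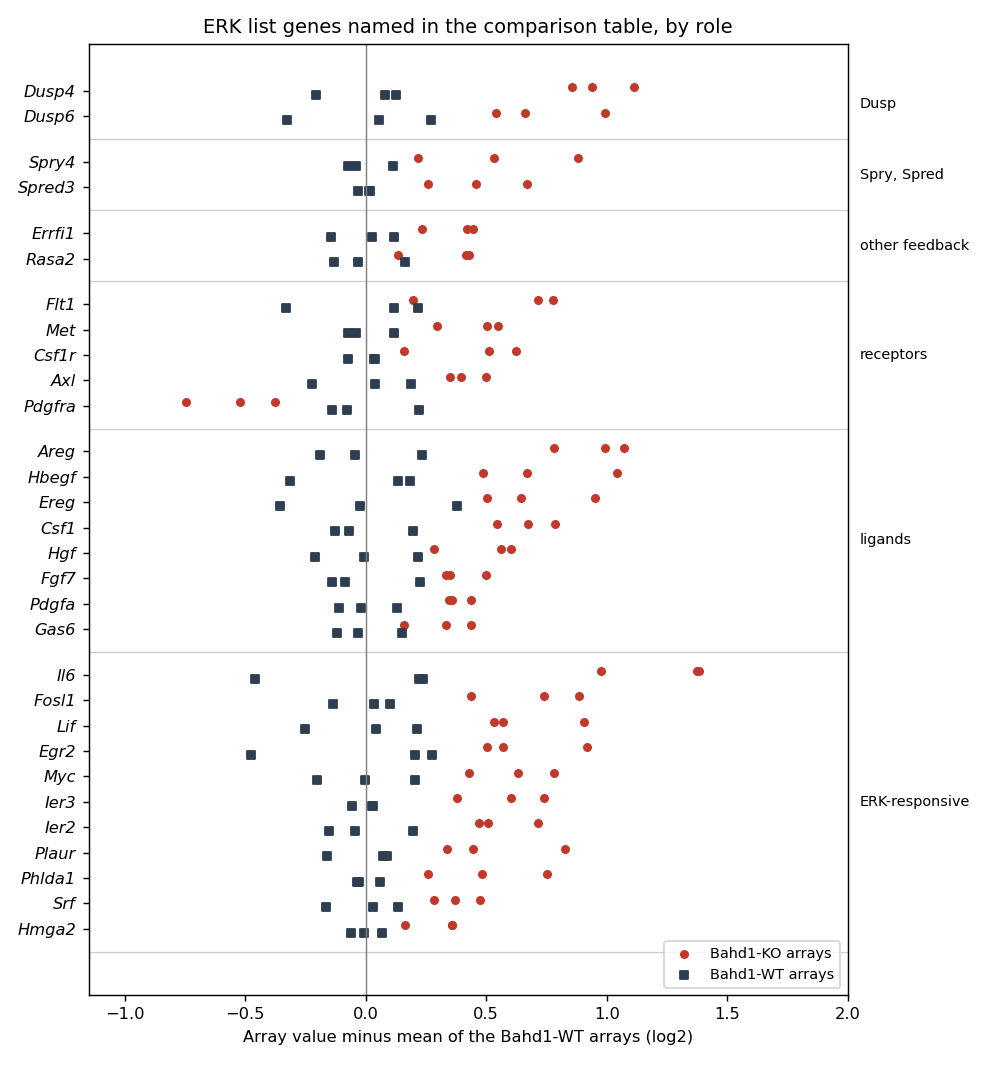
Array values minus the mean of the Bahd1-WT arrays (log2, x axis) for 30 genes of the ERK list that the table names, by role, with red circles for the 3 Bahd1-KO arrays and dark squares for the 3 Bahd1-WT arrays. Circles and squares are apart in 28 of these genes, Rasa2 and Flt1 overlap, and Pdgfra alone has its Bahd1-KO arrays to the left.

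The Y-linked levels of the arrays and markers of cell types were read beside these differences. Genes of the Y chromosome (Kdm5d, Ddx3y and Eif2s3y, averaged on the log2 scale) reached 7.06 and 7.03 in Bahd1-KO MEFs 2 and 3, whereas Bahd1-KO MEFs 1 had 2.38. In Bahd1-WT MEFs 1 to 3 their average was 2.36, 7.19 and 2.38. High levels were thus found in 2 Bahd1-KO arrays and 1 Bahd1-WT array. Among the arrays with high Y-linked levels, Bahd1-KO MEFs 2 and 3 exceeded Bahd1-WT MEFs 2 by 0.94 for Dusp4, 0.77 for Dusp6, 0.75 for Spry4 and 0.44 for Spred3. Among those with low levels, Bahd1-KO MEFs 1 exceeded the mean of Bahd1-WT MEFs 1 and 3 by 0.90 for Dusp4, 0.57 for Dusp6 and 0.47 for Spred3, but by only 0.20 for Spry4. The difference of Dusp4 and Spred3 was thus about as large in either set, while that of Spry4 was not, and whether the 2 sets differ was not tested.

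Of 13 fibroblast markers, Lum and Pdgfra are in the table, and both were lower in Bahd1-KO MEFs. Their mean log2 level ranged from 7.73 to 8.10 in Bahd1-KO and from 8.35 to 8.85 in Bahd1-WT MEFs. Markers of other cell types that the table names all had higher means in Bahd1-KO MEFs. These were 3 of 6 epithelial markers (mean log2 level 7.58 to 7.79 in Bahd1-KO and 6.60 to 7.14 in Bahd1-WT MEFs), 2 of 6 endothelial ones (5.52 to 6.16 in Bahd1-KO and 4.75 to 4.92 in Bahd1-WT MEFs) and 3 of 6 muscle ones (9.01 to 9.19 in Bahd1-KO and 8.50 to 8.54 in Bahd1-WT MEFs). The macrophage marker Csf1r and the neural marker Nes were also higher, each the only named gene of its list. An epithelial marker had arrays that overlapped between the genotypes. All these markers were chosen by the authors' test on this contrast, and 354 of the 491 named genes were higher in Bahd1-KO MEFs. Other markers, among them Col1a1, Epcam, Pecam1 and Ptprc, are not named in the files used. The part of the makeup of the cultures in the level of the 4 inhibitors was not tested.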

How the data were processed

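Values were deposited on the log2 scale. The authors made them with RMA (background correction, normalization between arrays and summary at the gene core level), and neither software version nor genome build is given in the sources used here. The deposited table of named genes repeats the values of the value table for 491 of 491 genes and adds the authors' SDs, folds and p-values from an LPE test, which were not used. The per-cluster SDs and differences were computed from the values as deposited, without filter. Limma 3.58.1 (R 4.3.3; lmFit, eBayes, two-sided, Benjamini-Hochberg) was fitted to all 23332 clusters, gave standard errors for the genes and was tested on simulated data. The LPE test was not installed. The 4 genes and all lists were chosen with earlier results of these data known. Named genes were the 4 members, ERK list and marker genes in the table, and for each member the 2 closest genes by either Pearson's r, with some withheld genes not reported here. Of older symbols, only those that no other gene now bears were matched through RefSeq synonyms. Alternatives were other normalizations, medians, array weights, a trended prior, a brightness filter, a replicate block, the Y-linked level and each array left out, the last for the ERK list added after seeing the data. Embryos were cultured separately, so arrays are biological replicates.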

Additional observations from a re-analysis of the deposited data

How the results depend on the processing

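The log2 differences of Dusp4, Dusp6, Spry4 and Spred3 were positive under all settings run, and all but 1 moved by less than the pooled SD of the gene. The exception was Spry4 within the arrays with low Y-linked levels, at 0.20, where each side holds only 1 or 2 arrays. With each array left out in turn, the difference lay between 0.87 and 1.03 for Dusp4, 0.57 and 0.87 for Dusp6, 0.37 and 0.71 for Spry4 and 0.36 and 0.56 for Spred3. The lowest values of Spry4 and Spred3 were those without Bahd1-KO replicate 3. For Dusp4 and Dusp6 they were those without Bahd1-WT replicate 3. That array also had the smallest of the array weights, 0.54, where the others lay between 0.89 and 1.48. In both other normalizations the genotypes of the 4 genes did not overlap, as was the case for 28 or 29 genes of the ERK list. Leaving out an array can only keep or raise this count, so its values (29 to 31) say nothing of stability. Limma called 0 clusters under all settings over all clusters, with 1854 to 2692 at an unadjusted p under 0.05, and 36 among those above the median brightness, where fewer are tested. With the replicate number as a block the differences (0.97, 0.73, 0.54 and 0.46) cannot change in this balanced design. Their standard errors were 0.15 for Dusp4, 0.23 for Dusp6, 0.13 for Spry4 and 0.12 for Spred3, against 0.12, 0.19, 0.18 and 0.12 without the block, 0 clusters were called and the smallest adjusted p in limma was 0.498, against 0.222 without it. The deviations of same-numbered arrays correlated at -0.00052, 0.027 and 0.00022, and only number 2 was closest to its own. Whether the numbers pair the arrays cannot be told from this, since these are deviations from the means of only 3 arrays per genotype.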
